A study of Xenopus laevis with 6 samples.

Results

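The nodal ligands of Xenopus laevis and their feedback inhibitor lefty were followed at the time the embryonic genome becomes active. The RNA was captured through a label that marks new synthesis. The members were the entries named nodal.L, nodal1.L, nodal2.L, nodal3.1.L, nodal3.2.L, nodal5.2.L, lefty.L and lefty.S. They were chosen by name, with earlier results of these data known. These 8 names gave 9 of the 50489 entries in the deposited table, because nodal3.1.L appears as 2 separate entries, called here the first and the second in file order. The table held 8 further entries named nodal that were not members. The suffixes L and S mark the long and short subgenomes of this allotetraploid frog.

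All embryos were wild type and whole, and every embryo had received 5-ethynyl uridine (EU) by injection into the single cell, 10 nl at 50 mM for a final concentration near 0.5 mM. They were raised at 22 °C. EU is a uridine analogue that is built into RNA made after injection, so that this RNA can be biotinylated and captured. There were 3 groups of 2 libraries: embryos at 7.5 hours post fertilization (hpf) that had been held since 5 hpf in cycloheximide (CHX, 0.2 mg/ml), which blocks protein synthesis; untreated embryos of 7.5 hpf; and untreated embryos of 5 hpf. The untreated groups are called controls. The labels call all of them blastulae, and the series design gives 1 clutch for all embryos, so the p-values reflect only the spread among these libraries, which may be technical, and not that among clutches. In whole embryos, fewer cells making a transcript and less RNA per cell cannot be told apart.

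Nodal proteins are secreted ligands of the TGF-beta family. They bind activin receptors together with an EGF-CFC co-receptor, and the receptors activate Smad2 and Smad3, which enter the nucleus with Smad4 and partner proteins such as Foxh1. In the frog blastula the signal comes mainly from vegetal cells and induces mesoderm and endoderm. Lefty proteins are diverged members of the same family that block nodal signalling, and lefty genes are themselves switched on by it. In Xenopus, nodal5 and nodal6 are among the earliest zygotic genes and depend on the maternal T-box factor Vegt and on beta-catenin, nodal1 and nodal2 act in vegetal and marginal cells, and nodal3 is a dorsal target of Wnt signalling that does not induce mesoderm. RefSeq lists nodal4 as another name of nodal.L.

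All 8 names matched RefSeq's table for the assembly Xenopus_laevis_v10.1, which was used only for names and neighbours. There nodal5.2.L lies directly between nodal5.L and nodal6.L, nodal2.L is next to nodal1.L, and 1 gene separates nodal3.1.L from nodal3.2.L. Copies of this kind may share reads. The sources used here do not state how the quantification divided such reads or whether it used strand, so values of single copies are uncertain.

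The deposited values are whole numbers that the authors normalized per library, and their totals ran from 6680033 to 7742693. The spacing of the low values gave the estimated worth of a single read, 0.649 and 0.446 units for CHX replicates 1 and 2, 1.18 and 0.687 for the controls of 7.5 hpf, and 1.85 and 2.31 for those of 5 hpf. An entry listed at 0 at 5 hpf could therefore still lie at up to 5.54 or 6.93 units, the worth of 3 reads in those libraries. This limit covers counting error only. The values are not divided by transcript length, so levels are compared between samples and not between genes. Oocyte transcripts were also present, and all 29 such entries were tested. From 5 to 7.5 hpf in controls, 2 of the 29, wee2.L and zar2.S, were called lower, against 0.715% of all genes tested. Both calls were lost in fits without single libraries. The highest of the 29 by mean was h1-8.S, with 2482 and 2557 in CHX embryos. It had 2666 and 2669 in 7.5 hpf controls and 2503 and 2900 in 5 hpf controls. How far any value reflects RNA made before the EU injection was not tested. All 19 blastula marker entries (pou5f3, sox3, vegt and others) were above 0 in at least 1 library. Of these, 2 were at 0 in both 5 hpf libraries. The summed values were 36640 and 39130 in CHX embryos, 38066 and 59779 in 7.5 hpf controls and 23385 and 23878 in 5 hpf controls. Of 17 marker entries of differentiated tissue, 9 were at 0 in all libraries, including both globin entries. The highest of the rest was the keratin entry krt8.1.L. It had 1299 and 1025 in CHX embryos, 1391 and 1042 in 7.5 hpf controls and 1174 and 881 in 5 hpf controls. Already at a like level at 5 hpf, krt8.1.L is not read here as a sign of differentiated tissue.

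The values of each entry are given as replicates 1 and 2 of a group. The ligand nodal1.L had normalized values of 99 and 39 in CHX embryos, 62 and 30 in 7.5 hpf controls and 0 in both 5 hpf libraries. Its neighbour nodal2.L had 108 and 42 in CHX embryos, 78 and 53 in 7.5 hpf controls and again 0 in both at 5 hpf. For both ligands the CHX and control ranges overlapped, and the higher CHX library exceeded both controls. The ligand nodal.L had 62 and 15 in CHX embryos, 103 and 74 in 7.5 hpf controls and 0 in both 5 hpf libraries, so that both CHX values lay below both controls.

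The remaining ligands, apart from 1 entry, were already above 0 at 5 hpf. The ligand nodal5.2.L, of the earliest group, stood at 39 and 42 in CHX embryos, 208 and 75 in 7.5 hpf controls and 26 and 5 at 5 hpf, where the lower value corresponds to an estimated 2.17 reads. Under CHX it lay below both controls of the same age and above both 5 hpf libraries. The second entry of nodal3.1.L stood at 120 and 79 in CHX embryos, 280 and 132 in 7.5 hpf controls and 46 and 44 at 5 hpf. Its neighbour nodal3.2.L stood at 81 and 62 in CHX embryos, 505 and 185 in 7.5 hpf controls and 30 and 25 at 5 hpf. Both of these dorsal ligands thus lay between their own 5 hpf and 7.5 hpf control ranges when translation was blocked. The first nodal3.1.L entry was low throughout, at 38 and 8 in CHX embryos, 22 and 16 in 7.5 hpf controls and 0 in both 5 hpf libraries.

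Both inhibitor copies had higher means in CHX embryos than in controls of the same age. The copy lefty.L had 485 and 316 in CHX embryos, 455 and 168 in 7.5 hpf controls and 0 in both 5 hpf libraries. The other copy, lefty.S, had 175 and 147 in CHX embryos, 133 and 52 in 7.5 hpf controls and 9 and 16 at 5 hpf. For lefty.S the CHX range lay above the control range, whereas for lefty.L the ranges overlapped.

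**Figure D1:**
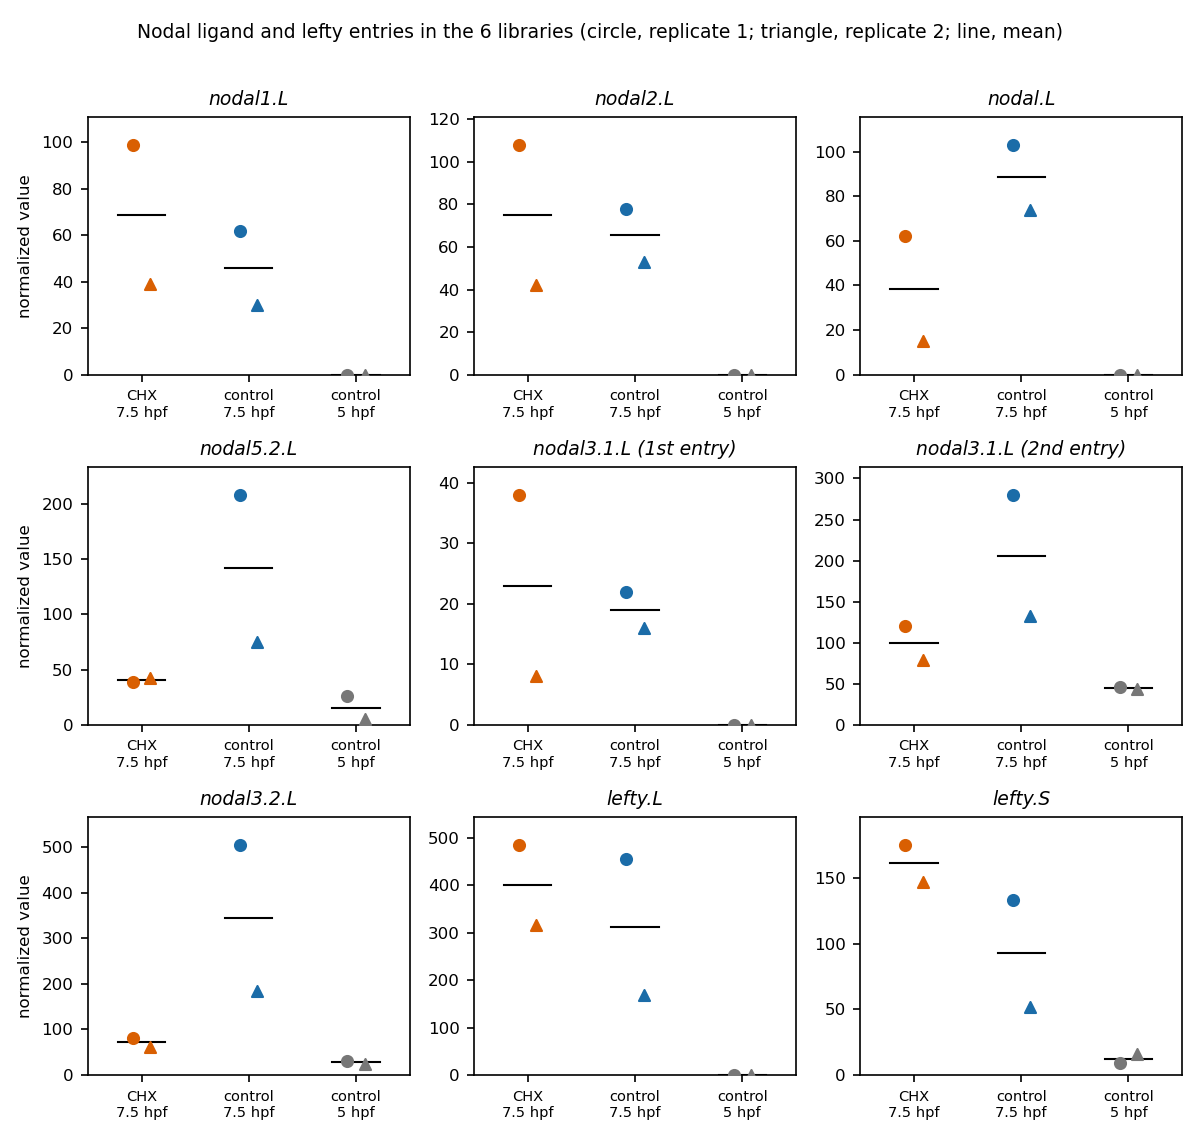
Normalized value (vertical axis, linear from 0, its own scale in each panel) of the 9 nodal and lefty entries for CHX embryos, controls of 7.5 hpf and controls of 5 hpf. Points are libraries and lines are means; nodal3.2.L stood at 81 and 62 under CHX against 505 and 185 in controls, whereas lefty.L stood at 485 and 316 against 455 and 168.

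Replicates of 1 group differed by a factor that many entries shared. Control 7.5 hpf replicate 1 was above replicate 2 for all 9 entries, by a ratio of 1.38 (the first nodal3.1.L entry) to 2.77 (nodal5.2.L). Among the 522 genes tested that were at 0 in both 5 hpf libraries and above 0 in the 4 later ones, the median of this ratio was 2.37. The CHX replicates differed by 0.929 (nodal5.2.L) to 4.75 (the first nodal3.1.L entry), with a median of 1.66 over the same 522 genes. The members' part in this shared difference between replicates was not tested.

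The first comparison asks which transcripts appeared or increased in untreated embryos from 5 to 7.5 hpf. Of the 9 entries, 8 were called higher, all but the first nodal3.1.L entry, at 7.5 hpf (adjusted p under 0.05 in limma, Benjamini-Hochberg over the 19149 genes tested), against 5.9% of all genes tested called higher and 6.61% called in either direction. None was lower. Because 5 of the 9 were listed at 0 at 5 hpf, they entered the test only through their later values and could differ only upward. The count does not stand as support. Those 5 are given without a fold change. In limma, lefty.L had an adjusted p of 3.2e-05, nodal2.L of 0.003, nodal.L of 0.0037 and nodal1.L of 0.0086, and the first nodal3.1.L entry, at 0.096, did not pass.

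Of the 4 entries already seen at 5 hpf, nodal3.2.L averaged 345 ± 226 in 7.5 hpf controls and 27.5 ± 3.54 in 5 hpf controls (SD, n = 2 each), a log2 fold change of 3.43 ± 0.52 (SE) on the log2(value + 1) scale with a limma adjusted p of 0.0022. The ligand nodal5.2.L rose by 3.31 ± 0.82 on that scale (adjusted p = 0.039, limma), lefty.S by 2.69 ± 0.60 (0.023) and the second nodal3.1.L entry by 2.07 ± 0.46 (0.022). With its 2 entries added together, nodal3.1.L rose by 2.21 ± 0.46 (limma adjusted p = 0.015). All 4 entries had both 7.5 hpf control values above both 5 hpf values, as did 25.6% of all genes tested.

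Several of these calls did not hold when 1 library was left out. Leaving out control 7.5 hpf replicate 1 leaves 1 library in that group. The log2 fold changes were then 2.71 for nodal3.2.L, 2.58 for nodal5.2.L, 2.02 for lefty.S and 1.53 for the second nodal3.1.L entry. Most member calls were lost in that fit, as were most calls over all genes tested. The members still called were at 0 in both 5 hpf libraries, so those calls do not stand as support. Fits without a CHX library kept every estimate of this comparison, and most calls over all genes tested were lost there too. The call of nodal5.2.L failed when control 7.5 hpf replicate 1, the second 5 hpf library or either CHX library was left out (limma adjusted p from 0.168 to 0.288), the CHX libraries entering only the estimate of the spread. That of lefty.S failed when control 7.5 hpf replicate 1, the first 5 hpf library or either CHX library was left out (0.115 to 0.185). That of the second nodal3.1.L entry failed when any library other than control 7.5 hpf replicate 2 was left out (0.0929 to 0.196).

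The second comparison asks which transcripts differed at 7.5 hpf when translation had been blocked since 5 hpf. None of the 9 entries was called (limma adjusted p under 0.05), against 0.554% of all genes tested, and 1 of the 9, nodal3.2.L, had an unadjusted p under 0.05, against 8.23% of all genes tested. The ligand nodal3.2.L averaged 71.5 ± 13.4 in CHX embryos and 345 ± 226 in controls (SD, n = 2 each), an estimate 4.27-fold lower in CHX embryos. Its log2 fold change was -2.09 ± 0.52 (SE; 95% interval -3.24 to -0.95, not adjusted for the number of genes), with a limma p of 0.0021 and an adjusted p of 0.18, so that it did not pass over all genes. Its adjusted p ranged from 0.0595 to 0.994 over the alternatives tried.

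The estimates for the other ligands that lay below both controls had intervals that included 0. For nodal5.2.L the log2 fold change was -1.60 ± 0.82 (SE; interval -3.43 to 0.22; limma adjusted p = 0.65), for nodal.L it was -1.48 ± 1.05 (-3.81 to 0.86; 0.74), and for the second nodal3.1.L entry -0.97 ± 0.46 (-1.99 to 0.04; 0.63). With both nodal3.1.L entries added together the estimate was -0.84 ± 0.46 (limma adjusted p = 0.67). Together with nodal3.2.L, these 4 of 9 entries had both CHX values below both controls, as did 18.1% of all genes tested and 26.7% of the 658 tested genes that were at 0 in both 5 hpf libraries. For 1 entry, lefty.S, both CHX values lay above both controls, as did those of 19.6% of all genes tested and 35% of those 658.

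For the remaining entries the estimates lay near 0 or above it. They were 0.52 ± 1.02 for nodal1.L (interval -1.75 to 2.78), 0.07 ± 0.95 for nodal2.L (-2.03 to 2.17) and -0.08 ± 1.34 for the first nodal3.1.L entry (-3.05 to 2.89). These intervals are wide in both directions, so no likeness between CHX and control embryos is shown. The inhibitor copies had estimates of 0.50 ± 0.64 for lefty.L (interval -0.92 to 1.92) and 0.94 ± 0.60 for lefty.S (-0.40 to 2.27), with limma adjusted p of 0.87 and 0.72. For lefty.S the lower bound corresponds to a CHX level of 0.758 of the control level, and for lefty.L to 0.529. The sign turned for lefty.L (-0.22) and nodal2.L (-0.21) without control 7.5 hpf replicate 2, and for nodal1.L (-0.14) and nodal2.L (-0.60) without CHX replicate 1. For the first nodal3.1.L entry it turned without control 7.5 hpf replicate 1 (0.14) or CHX replicate 2 (0.98), and with values under 10 raised to 10 (0.067).

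**Figure D2:**
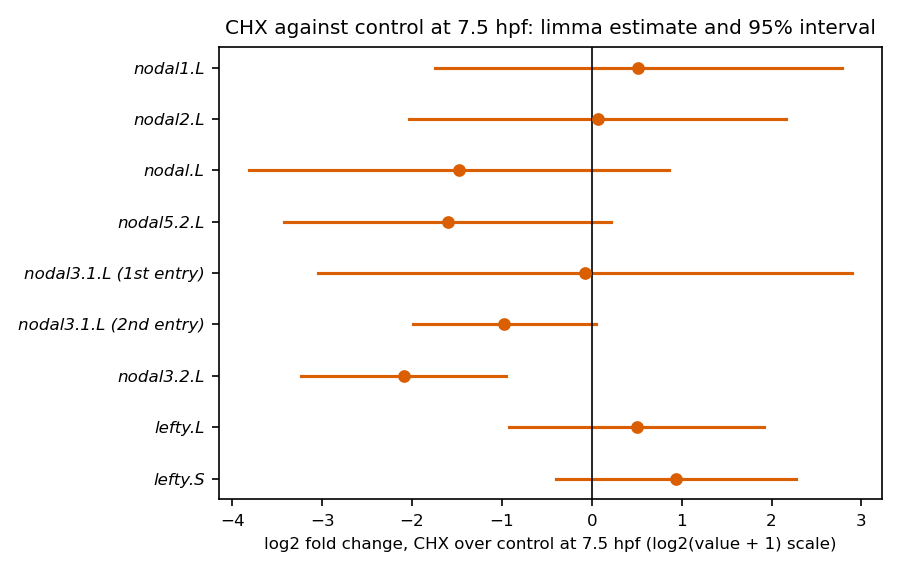
Log2 fold change of CHX over control embryos at 7.5 hpf on the log2(value + 1) scale (horizontal axis) for the 9 entries, with the limma estimate as a point and its unadjusted 95% interval as a line. The interval of nodal3.2.L, from -3.24 to -0.95, is the only 1 of the 9 that leaves out 0.

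Within each 7.5 hpf library the value of every entry was divided by that of lefty.L, a measure chosen after the values were seen, which removes any factor that all entries of a library share. The ratio of nodal3.2.L to lefty.L was 0.167 and 0.196 in CHX embryos and 1.11 and 1.10 in controls, so it was 6.09-fold lower in CHX embryos by the means. The ratio of nodal5.2.L to lefty.L was 0.0804 and 0.133 in CHX embryos and 0.457 and 0.446 in controls. For the second nodal3.1.L entry it was 0.247 and 0.250 in CHX embryos and 0.615 and 0.786 in controls.

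Other ratios were less separated. For nodal.L the ratio to lefty.L was 0.128 and 0.0475 in CHX embryos and 0.226 and 0.440 in controls. Ratios of nodal1.L, nodal2.L and the first nodal3.1.L entry overlapped between the groups, whereas that of lefty.S was higher under CHX, at 0.361 and 0.465 against 0.292 and 0.310 in controls. In all, 4 of 8 entries had a lower ratio to lefty.L in both CHX libraries, against 18.9% of all genes tested, and 1 had a higher ratio, against 3.9%. Divided by lefty.S instead, the same 4 ligand entries and lefty.L were lower in both CHX libraries, against 53.4% of all genes tested, and none was higher, against 2.61%. With 2 libraries a group an exact permutation test cannot fall below 0.05, and none is given. The 4 entries are those already seen below both controls, so the ratios describe the same values again and do not add support.

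**Figure D3:**
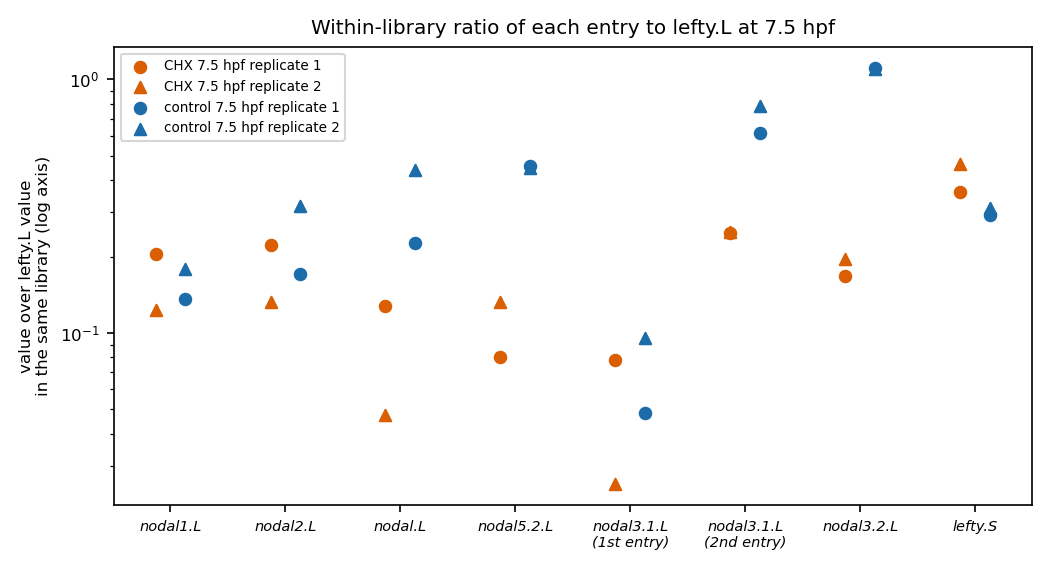
Value of each entry divided by the value of lefty.L in the same library (vertical log axis) in the 2 CHX libraries and the 2 control libraries at 7.5 hpf. The nodal3.2.L points lie at 0.167 and 0.196 under CHX and at 1.11 and 1.10 in controls, while the nodal1.L points of the groups overlap.

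The third comparison asks which transcripts still differed from the 5 hpf level with translation blocked. All 9 entries had both CHX values above both 5 hpf values, as did 26.7% of all genes tested, and 5 were called higher (limma adjusted p under 0.05), against 5.75% of all genes tested called higher and 6.01% called in either direction. Of these 5, all but lefty.S were listed at 0 at 5 hpf, entered the test only through later values and could differ only upward. Their calls do not stand as support. The inhibitor lefty.L had a limma adjusted p of 2.5e-05, nodal2.L of 0.0026, nodal1.L of 0.0049 and nodal.L of 0.017. The copy lefty.S averaged 161 ± 19.8 in CHX embryos and 12.5 ± 4.95 in 5 hpf controls (SD, n = 2 each), and rose by 3.63 ± 0.60 on the log2 scale (SE; limma adjusted p = 0.0041).

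The ligands of the nodal3 and nodal5 groups were not called above 5 hpf under CHX. Their log2 fold changes were 1.34 ± 0.52 for nodal3.2.L (SE; limma adjusted p = 0.21), 1.10 ± 0.46 for the second nodal3.1.L entry (0.26), 1.70 ± 0.82 for nodal5.2.L (0.36) and, with the entries added together, 1.36 ± 0.46 for nodal3.1.L (0.14). Leaving out either CHX library leaves 1 library in that group. Most member calls against 5 hpf were then lost, as were most calls over all genes tested. The loss is not read as a trait of the members. For lefty.S the log2 fold change was 3.505 without CHX replicate 1 and 3.755 without CHX replicate 2. Both comparisons against 5 hpf share the same 5 hpf libraries.

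Set beside the gain in untreated embryos, the gain under CHX ranged widely among the members. The CHX mean of nodal3.2.L stood above its 5 hpf mean by 13.9% of the difference between the 7.5 hpf and 5 hpf control means, and over the 4 pairings of a CHX with a control library this share ran from 7.22% to 34.0%. For nodal5.2.L the share was 19.8% (12.2% to 44.5%), for the second nodal3.1.L entry 33.9% (14.5% to 86.2%) and for nodal.L 43.5% (14.6% to 83.8%). In all 4 pairings these ligands stayed below the control gain. This follows from both CHX values lying below both controls, as already given. The shares describe the same values again and do not add support. For the inhibitors the share was 129% for lefty.L (69.4% to 289%) and 186% for lefty.S (112% to 411%). The shares of nodal2.L (114%), the first nodal3.1.L entry (121%) and nodal1.L (150%) had ranges that included the full control gain.

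**Figure D4:**
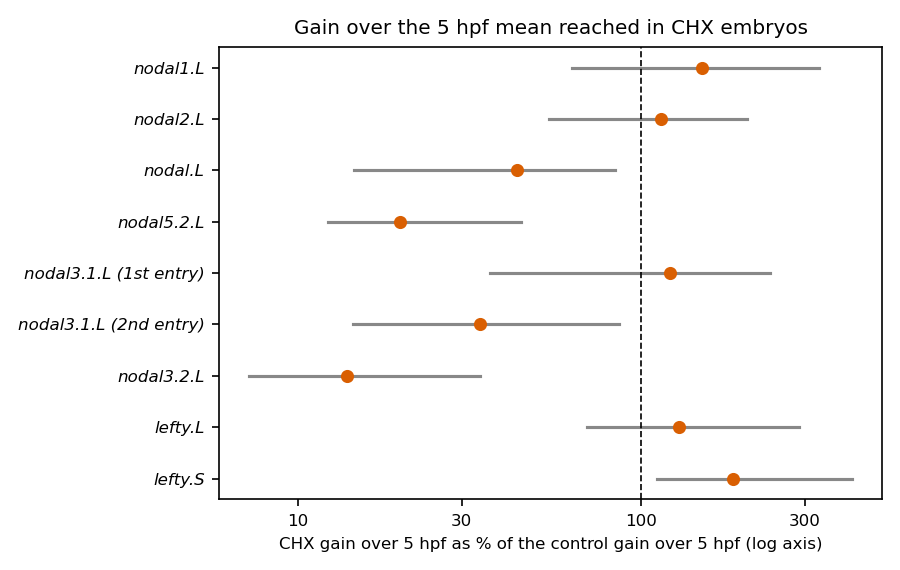
Gain of CHX embryos over the 5 hpf mean as a percentage of the gain of 7.5 hpf controls over the same mean (horizontal log axis; dashed line, equal gains). Points use group means and lines span the 4 pairings of a CHX with a control library. The ranges of nodal3.2.L (13.9%), nodal5.2.L (19.8%), the second nodal3.1.L entry (33.9%) and nodal.L (43.5%) lie wholly below 100%. This follows from both of their CHX values lying below both controls.

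The rest of the nodal pathway was described with lists of genes grouped by role, and 133 of their entries were tested. In controls of 7.5 against 5 hpf, none of 12 receptor and co-receptor entries and none of 7 proprotein convertase entries, the enzymes that cut nodal precursors, was called. Of all genes tested, 6.61% were called in either direction, so with so few entries this does not show that these lists were unchanged. The list medians were 0.09 and -0.12 on the log2 scale. The type I receptor gene acvr1b.S, named for its high mean value in the table, had 1211 and 1196 in CHX embryos, 1044 and 1203 in 7.5 hpf controls and 1294 and 1344 in 5 hpf controls. The convertase gene furin.S had 435 and 464 in CHX embryos, 539 and 505 in 7.5 hpf controls and 466 and 518 in 5 hpf controls.

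Among 21 transducers and partners, 2 rose and 1 fell from 5 to 7.5 hpf, against 5.9% of all genes tested called higher and 0.715% called lower. The gene foxh1.2.L, for a Smad partner, stood at 1722 and 1285 in CHX embryos, 3632 and 1622 in 7.5 hpf controls and 30 and 42 at 5 hpf (log2 fold change 6.06 ± 0.34 for 7.5 against 5 hpf controls, limma adjusted p = 5.3e-06). The common Smad gene smad4.1.L rose by 2.44 ± 0.53, while its other copy smad4.1.S fell by 1.87 ± 0.20. These copies were named after their values were seen, and the smad4.1.L call was lost without any library but 1 (limma adjusted p from 0.0719 to 0.165).

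Of 6 other TGF-beta family ligand entries, 1 was called higher, against 5.9% of all genes tested. It was gdf3.S, a mesoderm-inducing ligand, with 211 and 88 in CHX embryos, 649 and 213 in 7.5 hpf controls and 15 and 16 at 5 hpf (log2 fold change 4.50 ± 0.58 for 7.5 against 5 hpf controls, limma adjusted p = 0.00085). Of 24 inhibitor entries 5 rose (cer1.S, skil.S, tgif2.S, tgif2.L and bambi.L) and smad7.L fell, against 5.9% of all genes tested called higher and 0.715% called lower. The secreted nodal antagonist gene cer1.S, named after its values were seen, stood at 61 and 40 in CHX embryos, 204 and 101 in 7.5 hpf controls and 13 and 0 at 5 hpf. The corepressor gene tgif2.S rose by 1.97 ± 0.33. Each of these 6 calls was lost in at least 1 of the fits that left out a library.

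Regulators upstream of the ligands were called higher in 12 of 25 entries, against 5.9% of all genes tested, with a median log2 fold change of 0.79 against 0.03 for all genes tested. Of the 12, 1 was listed at 0 in both 5 hpf libraries and could differ only upward. Others of the 12, such as eomes.S (0 and 9 at 5 hpf) and sia1.S (4 and 0), passed the filter only through later values. The count does not stand as support. The POU factor gene pou5f3.2.S rose by 4.87 ± 0.30. The T-box factor gene vegt.L, an activator of nodal genes, rose by 0.75 ± 0.14, and sia1.L, a dorsal homeobox gene that like nodal3 answers to Wnt signalling, by 3.42 ± 0.64. Both were named after their values were seen, and both calls were lost in fits without single libraries (limma adjusted p from 0.051 to 0.0654 for vegt.L and from 0.0559 to 0.103 for sia1.L). In those embryos sia1.L stood at 226 and 120 under CHX, 481 and 108 in 7.5 hpf controls and 22 and 19 at 5 hpf. Targets of nodal signalling were called higher in 30 of 38 entries, but 15 of the 38, and 12 of those called, were listed at 0 in both 5 hpf libraries and entered the test only through their later values. Of the 23 target entries above 0 at 5 hpf, 18 rose, with a median log2 fold change of 5.10, against 5.9% of all genes tested called higher. Some of these, such as foxa4.S (0 and 2 at 5 hpf) and wnt8a.L (4 and 0), also passed the filter only through later values. This count therefore does not stand as support either. Target entries with the smallest adjusted p included the homeobox genes bix1.3.S (6.91 ± 0.31), mix1.L (5.98 ± 0.32) and bix1.3.L (5.97 ± 0.36), beside the BMP antagonist chrd.1.S and the forkhead gene foxa4.L, which were at 0 at 5 hpf.

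Against 7.5 hpf controls 1 of the 133 pathway entries was called, against 0.554% of all genes tested. This count is not read as a result about the pathway. The called entry was mix1.L, with 725 and 546 in CHX embryos and 3610 and 1697 in controls (log2 fold change -1.97 ± 0.32, limma adjusted p = 0.025). It did not pass when any library other than control 7.5 hpf replicate 2 was left out (limma adjusted p from 0.0509 to 0.791). The target median was -0.80, against 0.02 for all genes tested. The endoderm homeobox gene mixer.S had 181 and 53 in CHX embryos and 850 and 372 in controls, and bix1.2.L had 957 and 769 in CHX embryos and 4675 and 1498 in controls; neither passed (limma adjusted p = 0.34 and 0.22). Against 5 hpf controls, 32 of 38 target entries, 11 of 25 upstream entries and 4 of 24 inhibitor entries (tgif2.S, bambi.L, fst.S and fst.L) were called higher in CHX embryos, against 5.75% of all genes tested. Of these, 13 target, 2 upstream and 2 inhibitor entries were listed at 0 in both 5 hpf libraries and could differ only upward. Others, such as wnt8a.L (4 and 0 at 5 hpf) and eomes.S (0 and 9), passed the filter only through later values. These counts do not stand as support. Over the pathway, marker and oocyte transcript lists, most calls against 5 hpf under CHX were lost in at least 1 fit that left out a library. Many of the calls in controls were lost in the same way.

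**Figure D5:**
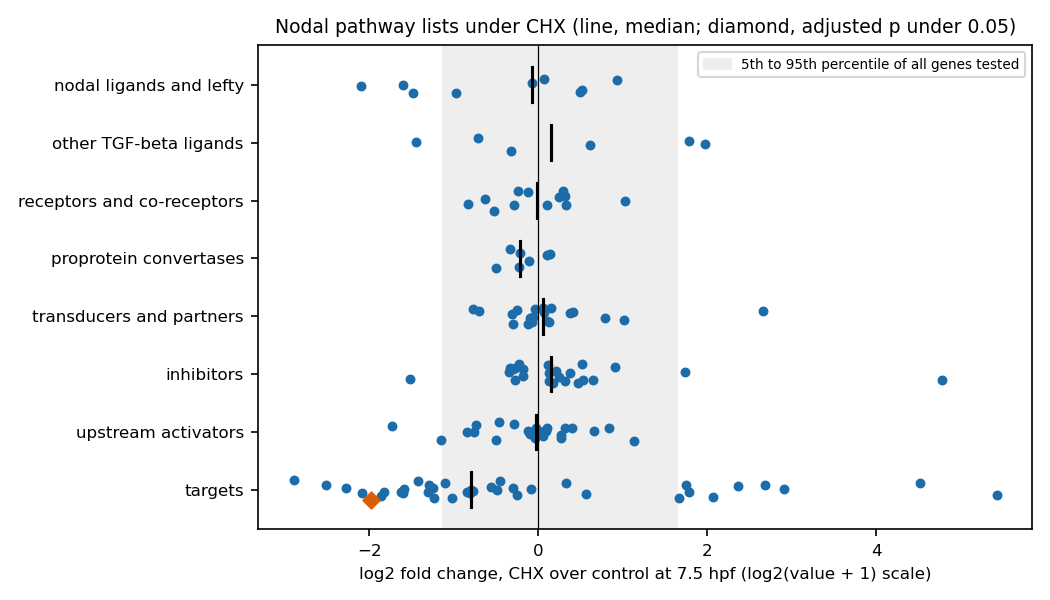
Log2 fold change of CHX over control embryos at 7.5 hpf on the log2(value + 1) scale (horizontal axis) for every tested entry of the nodal and lefty genes and of 7 pathway lists. Points are entries, vertical lines are list medians, the diamond is mix1.L, the only called entry, and the grey band spans the 5th to 95th percentile of all genes tested (-1.12 to 1.65).

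Genes with profiles most like those of the members were found by the root mean square difference of log2(value + 1), centred for each gene, over the 6 libraries. The closest to lefty.L was eppk1.L (0.127), with 572 and 369 in CHX embryos, 420 and 172 in 7.5 hpf controls and 0 in both 5 hpf libraries. The closest to lefty.S were hap1.L (0.152) and the Notch-responsive repressor gene hes1.L (0.156), and hes1.L had 1019 and 715 in CHX embryos, 714 and 254 in 7.5 hpf controls and 57 and 72 in 5 hpf controls. The profile of nodal1.L lay nearest rsad2.L (0.208) and the homeobox gene ventx1.1.L (0.220), and that of nodal2.L nearest rsad2.L (0.268) and the growth factor gene fgf8.L (0.271).

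For the ligands below both controls under CHX, the neighbours were these. Nearest to nodal3.2.L were adam12.S (0.277) and arl13b.L (0.281), the second of which stood at 343 and 292 in CHX embryos, 1925 and 790 in 7.5 hpf controls and 216 and 116 at 5 hpf. Nearest to the second nodal3.1.L entry were acsf2.L (0.162) and mex3b.L (0.201), nearest to nodal5.2.L cacna1f.L (0.306), and nearest to nodal.L pnhd.S (0.417), a gene for a secreted protein. For the first nodal3.1.L entry the closest was fam189b.L (0.382). These are descriptions over 6 libraries without a test.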

How the data were processed

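EU-labelled RNA from 6 libraries was analysed from 1 deposited table. Per the submitters' processing notes, transcripts were quantified with Salmon 0.12.0 and normalized with DESeq2. Build, annotation and settings: not given in the sources used here. As a score, each deposited value was read as a gene's estimate that the authors had scaled by library and rounded, since low values skip or repeat whole numbers regularly. In control 7.5 hpf replicates 1 and 2 another spacing matched nearly as well (0.351 and 0.648), so depths are estimates.

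Entries with a mean value of at least 11.9 (10 reads at the mean worth of 1.19 units) were tested. On the log2(value + 1) scale, limma 3.58.1 (R 4.3.3) fitted 1 model of the 3 groups to all libraries, with a trend on intensity (residual degrees of freedom 3, prior 7.35). The tests, two-sided and Benjamini-Hochberg adjusted over 19149 genes, were checked on simulated data. Fold changes on this scale understate the change of low genes. Figures were made with Python 3.11.15 and matplotlib 3.10.9.

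Named were all members; of the pathway lists, the 12 called entries with the smallest adjusted p in each comparison, not all printed, and the entry with the highest mean value in each list; and the 3 most similar profiles per member. The members and lists were chosen with earlier results of these data known. Alternatives were other scalings, filters and pseudocounts, a floor on low values, the replicate number as a block, library weights, 2-group fits, summed repeated names, each library left out, and a scaling on genes at 0 at 5 hpf that was chosen after seeing the data. No sequences were used here.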

Additional observations from a re-analysis of the deposited data

How the results depend on the processing

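Depth and 2 libraries a group limit these results: single entries at 5 hpf rest on few reads, and the 7.5 hpf control replicates differ in the same direction for all members. Over all alternatives, 472 member results stayed on their side of the threshold and 32 lost a call. The 472 include every alternative of the results not called in the main fit, among them all for CHX against control at 7.5 hpf. None of those gained a call. All 32 losses fell among the results called in the main fit. No called member changed direction. Scaling on totals put the median over all genes (log2, controls of 7.5 against 5 hpf) at -0.11, and scaling on oocyte transcripts put it at 0.23 (0.26 for CHX against 5 hpf), against 0.03 as deposited (0.02 for CHX against 5 hpf). Members called stayed 8 and 5 under each of these scalings.

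For controls at 7.5 against 5 hpf, 8 members and 1266 genes were called. Without a filter the numbers were 5 and 665 and in the 2-group fit 5 and 629. The strict filter called all 5 members it tested. Leaving out 1 library gave 3 to 8 members and 525 to 1999 genes (137 genes were lower, and 14 to 654 when a library was left out). For CHX against control at 7.5 hpf, 0 members were called under every alternative in limma, the only tool run, and 106 genes (38 higher, 68 lower). That number of genes was 0 without a filter (2318 at an unadjusted p under 0.05), 44 on oocyte transcripts (25 higher, 19 lower), 220 at a pseudocount of 5, 251 with values under 10 raised to 10, 167 under the replicate block, and 0 to 204 when a library was left out. Scaled on genes at 0 at 5 hpf it was 106 (82 higher, 24 lower), and nodal3.2.L had a log2 fold change of -2.08 ± 0.88 (SE; limma adjusted p = 0.88). For CHX against 5 hpf, 5 members and 1150 genes were called. The numbers were 4 and 671 without a filter, 2 members of 5 tested with the strict filter, and 1 to 5 members and 79 to 1341 genes when a library was left out. The cause of these changes was not tested.

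The deviations of same-numbered libraries from their group means were compared by correlation over all genes tested. The correlation was 0.0080 for the controls, 0.13 for CHX and 7.5 hpf controls and -0.020 for CHX and 5 hpf controls. The numbers were therefore not taken as pairs. Over the 522 genes at 0 at 5 hpf, replicate 1 was the higher in both 7.5 hpf groups, by median ratios of 2.37 and 1.66. Whether same-numbered libraries are linked for such genes was not tested. The replicate block left 8, 0 and 5 members called in the 3 comparisons, and 1501, 167 and 1361 genes.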

Other observations

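The table held 8 further entries named nodal, of which 4 were tested. None was called in limma in any of the 3 comparisons, against 6.61%, 0.554% and 6.01% of all genes tested. With so few entries this does not set them apart from the members. Their log2 estimates for 7.5 against 5 hpf controls ran from 1.285 (nodal6.S) to 3.639 (nodal5.8.L). The early ligand gene nodal6.L, next to nodal5.2.L in RefSeq's order, stood at 38 and 37 in CHX embryos, 74 and 57 in 7.5 hpf controls and 13 and 7 in 5 hpf controls. Its log2 fold change for 7.5 against 5 hpf controls was 2.64 ± 0.71 (SE; limma adjusted p = 0.053), and both CHX values lay between the control ranges. The other copy, nodal6.S, stood at 32 and 20 in CHX embryos, 59 and 8 in 7.5 hpf controls and 6 and 12 in 5 hpf controls. The nodal5 copy nodal5.L stood at 20 in both CHX libraries, at 157 and 20 in 7.5 hpf controls and at 4 and 14 in 5 hpf controls, and nodal5.8.L at 22 and 20 in CHX embryos, 53 and 22 in 7.5 hpf controls and 7 and 0 in 5 hpf controls. The 7.5 hpf value of nodal5.L thus rested on control replicate 1. Of the 4 entries not tested, nodal.S reached 14 in 1 control library at 7.5 hpf and nodal1.S reached 3 in 1 CHX library, against 99 and 39 for nodal1.L. The entries nodal5.5.L and nodal5.6.L stood at 1 or below in every library.

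Some pathway genes not called between CHX and control embryos stood above both controls in both CHX libraries. So did 19.6% of all genes tested and 35% of the 658 tested genes at 0 in both 5 hpf libraries. The endoderm factor gene gata4.S had 330 and 284 in CHX embryos, 64 and 82 in 7.5 hpf controls and 0 in both 5 hpf libraries (log2 fold change 2.06 ± 0.70 for CHX against 7.5 hpf controls, limma adjusted p = 0.43). The follistatin gene fst.L, for a secreted inhibitor of activin, had 143 and 41 in CHX embryos, 0 and 7 in 7.5 hpf controls and 0 in both 5 hpf libraries, and the Wnt effector gene lef1.L had 66 and 29 in CHX embryos, 15 and 25 in 7.5 hpf controls and 0 in both 5 hpf libraries. These genes were chosen after their values were seen.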
